A study of Mus musculus with 22 samples.

Results

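The regions described here are stretches of mouse genome between genes, away from any annotated promoter and outside gene deserts, at which the H3K4me3 signal of synovial fibroblasts was listed as different between 2 groups. They are the rows of the authors' 4 comparison tables whose deposited annotation is other intergenic, without those of chromosome 11, which were left out by rule and hold 736, 60, 230 and 87 further intergenic rows. There were 6012 such rows of 26201 listed: 3358 of 13603 for Tg197 against wild type (WT) at 3 weeks, 683 of 2923 at 8 weeks, 1600 of 6593 at 11 weeks, and 371 of 3082 for TNF against no TNF in WT cells of 8 weeks. No measured value was used to choose among the listed rows. A short stretch of chromosome 1 between Smap1 and 4931408C20Rik, where levels were very high, is counted with the others and described apart from them.

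H3K4me3, trimethylation of lysine 4 on histone H3, is a chromatin mark that is placed by Set1 and MLL methyltransferases and is best known from the promoters of active genes. Away from promoters the mark is usually weak, and enhancers carry mostly the monomethyl form of the same residue. Between genes a strong signal can mark a promoter that the annotation does not hold, while a weak one lies close to the level of unenriched chromatin.

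Synovial fibroblasts are the connective tissue cells of the joint lining, and they are the cells that TNF drives towards an invasive state in arthritis. All cells were cultured synovial fibroblasts of passages 4 to 5 on a CBA x C57BL/6J background. Cells of Tg197 and of WT mice were taken at ages of 3, 8 and 11 weeks, WT cells of 8 weeks were also given TNF, and each group had 3 libraries, 21 in all, and 1 input library made from mixed genotypes. Tg197 is a transgenic line in which human TNF is expressed and arthritis follows, so its cells have been exposed to TNF in the animal, whereas the dose and the length of the TNF treatment in culture were not in the labels used. The design names the ages early, established and late, and the 4 comparisons ask where the mark differs with the transgene at each age and with TNF in culture. The tables list only regions selected for a difference, so the cell type could not be checked at unselected promoters. Of 21 synovial fibroblast marker genes 13 had a listed row, against 4 of 20 leukocyte, 3 of 13 endothelial, 1 of 15 muscle, 7 of 19 cartilage, bone and fat, and 3 of 13 nerve sheath and epithelial marker genes.

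Reads recovered over all listed regions came to 1560963 to 2780941 per library at 3 weeks, 390496 to 849692 at 8 weeks, 807633 to 1096917 at 11 weeks and 321448 to 1312112 in the TNF comparison. Over the intergenic regions they came to 328105 to 541891, 140508 to 308372, 159402 to 239994 and 45412 to 120795. Values below are the authors' normalized read counts per region. The 3 values of a group carry no replicate number, and the letters a, b and c only give their order in the table. A region is called higher or lower when it passed the authors' adjusted p of 0.05, and it rose or fell when it passed limma's adjusted p of 0.05 over its whole table. Both tests were made on the libraries that had selected the regions, so neither is independent evidence of a difference.

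Intergenic regions lost far more often than they gained at 3 and 8 weeks and with TNF, and gains were common only in the 11-week table. At 3 weeks 63 regions were higher and 3278 lower, so that 1.89% (95% interval 1.45 to 2.41) of called regions were higher. Nearly all listed regions were called (99.2%), and among all called regions 9.79% were higher and 90.2% lower. At 8 weeks 23 were higher and 649 lower, a higher share of 3.42% (2.18 to 5.09), beside 20.7% higher and 79.3% lower among all called regions (97.4% of those listed). At 11 weeks 350 were higher and 1217 lower, a higher share of 22.3% (20.3 to 24.5), beside 30.8% and 69.2% among all called regions (96.8% of those listed). With TNF 18 were higher and 345 lower, a higher share of 4.96% (2.96 to 7.72), beside 25.4% and 74.6% (96.9% of those listed). Intervals are exact Clopper-Pearson intervals that account for counting error alone. Neighbouring regions share libraries and chromatin and are not independent.

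By limma 37 regions rose and 3237 fell at 3 weeks, where 4.68% of all listed regions rose and 88.9% fell. At 8 weeks 0 rose and 0 fell, as over the whole table (0% and 0%), and voom also called 0 intergenic regions. An unadjusted limma p under 0.05 was found at 418 of 683 intergenic regions, beside 1876 of all 2923 listed regions. At 11 weeks 355 rose and 1234 fell, beside 29.6% and 67.7% of all listed regions. With TNF 11 rose and 215 fell, beside 16.5% and 42.6%. All 3 Tg197 or TNF libraries lay above all 3 WT libraries at 39, 9, 338 and 14 regions in the order of the tables (6.29%, 16.9%, 28.8% and 22.4% of all listed regions did so). They lay below at 3102, 313, 1216 and 234 regions (86.4%, 46.3%, 67.1% and 51.8% of all listed). Some of these limma counts changed when 1 library was left out: at 3 weeks 0 regions passed without WT library c, 2141 without a and 2056 without b. Without WT library c the median log2 change was still -0.72, and 2512 regions had an unadjusted limma p under 0.05. Whether the library itself or the smaller number of libraries changed these counts was not tested. With TNF 0 passed without TNF library b, TNF library c, WT library a or WT library b. The median log2 change of the intergenic regions was -0.75, -1.01, -0.64 and -1.19 in the order of the tables. The same medians over all listed regions were -0.70, -0.86, -0.60 and -0.58.

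Most intergenic regions were short and low. The median length was 1100 bp in each table. The mean of the higher group, the level that brought a region into the table, had medians of 140, 159, 127 and 186 normalized reads, and its lowest value was 95.4, 117, 97.7 and 137. The control ratio over input had a median of 2.36, 1.99, 2.35 and 2.70, against 3.03, 2.83, 3.27 and 3.13 for listed regions within 3 kb of a transcription start site (TSS).

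Intergenic changes were close to those of gene bodies, while promoter regions were of both directions. Listed regions in gene bodies had median log2 changes of -0.73, -1.02, -0.63 and -1.21, close to the intergenic medians, and 0.93%, 4.68%, 25.1% and 3.01% of their called regions were higher. Regions within 3 kb of a TSS had medians of -0.54, -0.47, 0.09 and -0.41, and 40.3%, 46.1%, 49.7% and 40.5% of those called were higher. Summed over each library, with mitochondrial rows and the chromosome 1 stretch left out, the intergenic signal relative to the gene body signal at 3 weeks was 0.551 ± 0.008 (SD, n = 3) in Tg197 and 0.543 ± 0.006 (n = 3) in WT cells (exact permutation test, two-sided, p = 0.3). At 8 weeks it was 1.03 ± 0.08 and 1.04 ± 0.13 (exact permutation p = 0.8), and with TNF 0.648 ± 0.059 and 0.651 ± 0.042 (exact permutation p = 0.9). At 11 weeks the 3 Tg197 libraries, at 0.550 ± 0.002, lay below the 3 WT libraries, at 0.568 ± 0.004 (exact permutation p = 0.1). With 3 against 3 libraries 0.1 is the smallest p this test can give.

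Against promoters the intergenic signal was lower in treated libraries. The summed regions were listed for a difference between these same libraries, which partly sets the direction and separation of the ratios. The p-values of these ratios, and of those to gene bodies, are thus no independent evidence of a difference. At 3 weeks the sum over intergenic regions divided by that over promoter regions (within 1 kb of a TSS) was 0.955, 0.636 and 1.34 in Tg197 libraries a, b and c and 1.75, 1.75 and 1.86 in the WT libraries. The groups did not overlap, and the mean log2 difference was -0.93 (exact permutation p = 0.1). At 11 weeks the ratios were 0.814, 0.870 and 0.729 against 1.20, 1.09 and 1.11, again without overlap, at a log2 difference of -0.50 (exact permutation p = 0.1). With TNF they were 0.331, 0.148 and 0.264 against 0.543, 0.585 and 0.414, at -1.11 (exact permutation p = 0.1). The 8-week ratios were 1.24, 1.55 and 0.892 in Tg197 against 2.06, 1.97 and 1.12 in WT cells and overlapped, at -0.47 (exact permutation p = 0.3). Without the mitochondrial rows they were 0.579, 0.964 and 0.732 against 1.86, 1.75 and 0.821, a log2 difference of -0.91 that also overlapped (exact permutation p = 0.2).

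Library c of the WT cells at 8 weeks stood apart from WT libraries a and b. Its median intergenic region lay 0.70 log2 units below the WT mean (a value of -0.700), while libraries a and b lay at 0.414 and 0.258 and the Tg197 libraries at -1.37, -0.684 and -0.840. The same 3 WT libraries are the controls of the TNF comparison, where they lay at 0.313, 0.206 and -0.545 and the TNF libraries at -0.643, -1.82 and -1.07. Without WT library c, limma called 655 intergenic regions at 8 weeks, of which 6 rose and 649 fell, and 325 with TNF. Relative depth here is the number of reads that make 1 normalized read, so it follows the authors' scaling and need not equal sequencing depth. Each level is reads divided by that number, so level and relative depth are not independent. In some libraries a low intergenic level went with a high relative depth. WT library c had a relative depth of 1.39 in the 8-week table, against 0.684 and 0.637 for a and b, and the lowest Tg197 library, a, was the deepest at 1.87. In the TNF comparison library b was both the deepest, at 2.75, and the lowest. At 3 weeks Tg197 library b was the deepest, at 1.73, and the lowest, at -1.09. At 11 weeks depths ran from 0.890 to 1.19 and Tg197 library c had both the greatest depth and the lowest level, -0.643. Other libraries did not follow this order. At 3 weeks Tg197 library c was the shallowest, at 0.736, and lay at -0.470, below all WT libraries. In the TNF comparison TNF library a and WT library a had depths of 0.553 and 0.583 and lay at -0.643 and 0.313. At 11 weeks WT library b was deeper than Tg197 library a, 1.15 against 0.934, and lay at -0.059 against -0.588. The part of depth in these levels was not tested.

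**Figure D1:**
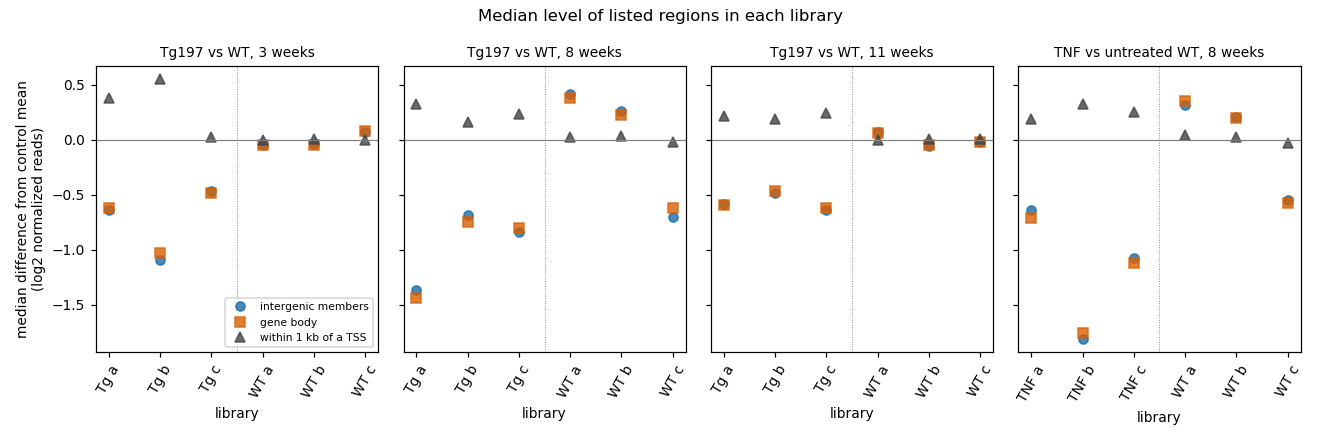
Median difference of listed regions from the WT mean of the same table, in log2 normalized reads (y axis), for each library (x axis), with 1 panel per comparison; circles are intergenic regions, squares gene body regions and triangles regions within 1 kb of a TSS. Intergenic and gene body medians lie together in every library, and WT library c of the 8-week cells lies near the treated libraries, at -0.700 and -0.545.

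The direction of many single regions depended on how the libraries were scaled against each other. When each library was scaled to its median over all listed regions of a table, 52 intergenic regions rose and 3 fell at 3 weeks, 5 rose and 21 fell at 8 weeks, 360 rose and 219 fell at 11 weeks, and 18 rose and 50 fell with TNF. The median over all listed regions was then -0.04, -0.15, -0.26 and -0.07, and the intergenic median -0.08, -0.29, -0.29 and -0.68. When promoter regions, those within 1 kb of a TSS, set the scale, 0 rose and 3292 fell at 3 weeks, 0 and 442 at 8 weeks, 296 and 1239 at 11 weeks, and 4 and 302 with TNF. The tables do not hold regions without a difference, so the data do not say which scaling is right. Of the 3278 regions called lower at 3 weeks, 956 lay above 0 when scaled to all listed regions. That scaling moves all regions of a table upwards by the same amount, so it could not bring a gain below 0. All 63, 23, 350 and 18 regions called higher, in the order of the tables, lay above 0 in it, and 51, 5, 350 and 18 rose. Scaled to promoters, which moves regions downwards, 348 of the 350 at 11 weeks lay above 0 and 293 rose.

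**Figure D2:**
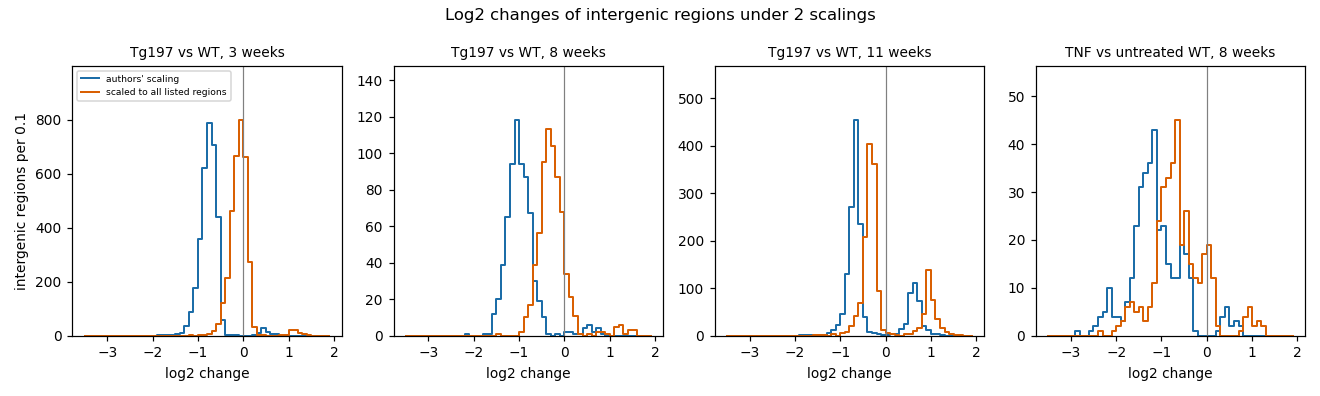
Number of intergenic regions (y axis) per 0.1 of log2 change (x axis) in each comparison, under the authors' scaling (blue) and after setting every library to the same median over all listed regions (orange). The large group of losses moves to near 0 at 3 weeks, where the median goes from -0.75 to -0.08. This scaling moves all regions of a comparison upwards by the same amount, so no gain can move to the left of 0. Only regions with a difference are listed, so few lie near 0 under the authors' scaling.

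The single regions described for each comparison are those with the largest changes among called regions whose groups did not overlap. The genes named beside a region are the nearest on each side among those the tables place, and other coding genes can stand between them, up to 75 by gene order in RefSeq (GRCm38.p6). The region with the largest fall at 3 weeks was on chromosome 10, 68075501 to 68076600 (mm9), between Arid5b, a DNA-binding regulator, and Tmem26, with 54.8, 20.3 and 42.1 normalized reads in the Tg197 and 114, 120 and 153 in the WT libraries. Every Tg197 library was lower than every WT library, and the log2 change was -1.81 ± 0.44 (SE; limma adjusted p = 0.014). A region on chromosome 10, 22776401 to 22777400, between Tbpl1 and Eya4, a transcriptional coactivator, had 49.3, 8.70 and 80.1 against 109, 105 and 128 (log2 change -1.78 ± 0.71, limma adjusted p = 0.029). On chromosome 5, 150032301 to 150033400, between Uspl1 and Alox5ap, which is needed for leukotriene synthesis, the values were 82.7, 57.4 and 14.9 against 121, 139 and 127 (-1.62 ± 0.52). On chromosome 9, 60929401 to 60930400, between Uaca and the corepressor gene Tle3, they were 50.1, 20.9 and 70.6 against 106, 104 and 160 (-1.51 ± 0.45). The lowest library differed between these regions, being b at 3 of them and c beside Uspl1.

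The rises at 3 weeks were smaller and fewer. On chromosome 12, 114032301 to 114033400, between AW555464 and BC022687, the Tg197 libraries held 199.5, 194 and 261 normalized reads and the WT libraries 108, 153 and 127, without overlap (log2 change 0.75 ± 0.19, limma adjusted p = 0.014). Between Rgmb, a co-receptor for bone morphogenetic proteins, and the aminopeptidase gene Lnpep, on chromosome 17, 15967601 to 15968600, they held 135, 142 and 185 against 86.1, 83.8 and 112 (0.71 ± 0.20). Between Lrp4, a receptor in Wnt and agrin signalling, and Ckap5, on chromosome 2, 91369401 to 91370400, they held 97.8, 76.5 and 153 against 73.5, 58.1 and 66.5 (0.67 ± 0.30, limma adjusted p = 0.046). On chromosome 13, 42628701 to 42629700, in the gap after Hivep1, the values were 83.5, 61.5 and 141 against 52.5, 52.5 and 59.2, called higher by the authors but not past limma's threshold (0.71 ± 0.39, adjusted p = 0.097). In these 4 regions Tg197 library c was the highest. Under promoter scaling 0 of the 63 higher regions rose, although 58 of them lay above 0.

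At 8 weeks no region passed limma. Among regions whose groups did not overlap, the largest loss was on chromosome 14, 47417501 to 47418500, between Bmp4, a bone morphogenetic protein gene, and Gmfb, with 16.0, 27.0 and 43.6 normalized reads in Tg197 against 171, 137 and 68.9 in WT cells. The groups did not overlap, and the log2 change was -2.12 ± 0.69 (limma adjusted p = 0.073). Between Etohd2 and Gas1, a growth arrest and hedgehog co-receptor gene, on chromosome 13, 60131001 to 60132100, the values were 24.1, 48.5 and 61.8 against 196, 159 and 78.9 (-1.68 ± 0.53, limma adjusted p = 0.073). Between Gadd45g, a stress-response gene, and Auh, on chromosome 13, 51961001 to 51962100, they were 33.7, 62.0 and 50.7 against 172.5, 160.2 and 109 (-1.60 ± 0.39, limma adjusted p = 0.073). Beside Gm4302, on chromosome 10, 99836601 to 99837600, they were 19.8, 55.3 and 49.1 against 152, 173 and 73.2 (-1.71 ± 0.58). In each of these 4 regions WT library c was the lowest of the WT libraries.

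Over all listed regions at 8 weeks 590 were called higher, and at 494 all Tg197 libraries exceeded all WT libraries. Without the mitochondrial rows and the chromosome 1 stretch 16 intergenic regions were called higher. In 9 of them all Tg197 libraries exceeded all WT libraries. The clearest lay between Ermp1 and Ranbp6, on chromosome 19, 29880501 to 29881700, with 250.1, 206 and 213 against 133, 151 and 169 (log2 change 0.57 ± 0.21, limma adjusted p = 0.073). Between Prkar2a, a regulatory subunit of protein kinase A, and Ip6k2, on chromosome 9, 108686501 to 108687500, the values were 256, 225 and 243 against 130.1, 199.5 and 179 (0.53 ± 0.22). In the gap after Bpgm, on chromosome 6, 34550401 to 34552400, they were 295, 442 and 385 against 249, 284 and 245 (0.51 ± 0.22). A region at the end of chromosome 19, 61274701 to 61276600, was high in all libraries, with 2406, 2221 and 2199 against 1322, 1426 and 1974 (0.55 ± 0.49, limma adjusted p = 0.29). Other calls came from libraries that scattered widely. On chromosome 3, 8245001 to 8247200, between Il7 and Hey1, the Tg197 libraries held 826, 5568 and 2916 normalized reads and the WT libraries 2118, 2188 and 2234, so that 1 Tg197 library lay below and 2 lay above all WT libraries (0.12 ± 0.79, limma adjusted p = 0.88). Beside Sgk1, on chromosome 10, 21862801 to 21863800, chosen after its values were seen, they held 165, 1032 and 513 against 427, 435 and 445 (0.03 ± 0.56).

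At 11 weeks the libraries of a group were close together, and gains were common. Only regions with a difference are listed, so gains and losses stand apart by selection. Higher regions had a median log2 change of 0.63 and lower regions of -0.67. The largest rise was on chromosome 4, 83842601 to 83843600, between 4930473A06Rik and Bnc2, a zinc finger gene, with 123, 102 and 87.9 normalized reads in Tg197 against 61.8, 32.3 and 39.3 in WT cells (1.26 ± 0.26, limma adjusted p = 0.0043). On chromosome 5, 95152601 to 95153600, in the gap after the cyclin gene Ccng2, the values were 115, 119 and 90.4 against 45.3, 36.6 and 58.4 (1.21 ± 0.23). Between Mex3b, an RNA-binding protein gene, and Stard5, on chromosome 7, 90041501 to 90042500, they were 110.3, 109 and 94.6 against 79.5, 30.5 and 38.2 (1.19 ± 0.30). Between Fam113b and Endou, on chromosome 15, 97476501 to 97477500, they were 109, 106 and 85.4 against 46.4, 44.5 and 42.7 (1.15 ± 0.21). The groups did not overlap at these 4 regions.

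The largest falls at 11 weeks had WT levels of 120 to 425 normalized reads. On chromosome X, 57183101 to 57184300, between Gpc4 and Fmr1, the values were 26.8, 67.6 and 32.7 in Tg197 against 152, 173 and 120.2 in WT cells (log2 change -1.90 ± 0.30, limma adjusted p = 0.0043). In the gap between Ythdc1, a reader of methylated RNA, and Slc4a4, on chromosome 5, 87860101 to 87862000, they were 86.7, 118 and 52.7 against 425, 161 and 279.7 (-1.71 ± 0.31). Between Chkb and Gxylt1, on chromosome 15, 90910601 to 90912500, they were 72.8, 122 and 74.5 against 382, 209 and 282 (-1.69 ± 0.22), and between Phlda1 and Tmem19, on chromosome 10, 111586701 to 111588300, they were 149.9, 122 and 51.1 against 363, 215 and 279.7 (-1.51 ± 0.31). No groups overlapped, and at the last 3 regions WT library b was the lowest WT library. By RefSeq gene order 75, 35, 17 and 12 other coding genes stand between the named genes of these 4 pairs, so neither gene of a pair need be the closest.

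The gains at 11 weeks lay where the WT signal was nearest to input. Among regions with a control ratio over input of 1 to 2, 210 of 459 called regions were higher, or 45.8% (95% interval 41.1 to 50.4). Under a ratio of 1 the share was 33.8% of 80 regions (23.6 to 45.2). At ratios of 2 to 3 it was 12.9% of 619 (10.4 to 15.8), at 3 to 4 it was 5.82% of 275 (3.36 to 9.28), and at 4 or more 12.7% of 134 (7.57 to 19.5). Both bins under 2 thus lay above the 3 others beyond their counting intervals. In the 3 other tables no bin passed 11.4%, the share at a ratio of 4 or more at 8 weeks (3.20 to 26.7, 35 regions). How the authors scaled this ratio is not stated in the labels, and a low WT value enters both the ratio and the call, so the bins describe the table and test nothing.

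**Figure D3:**
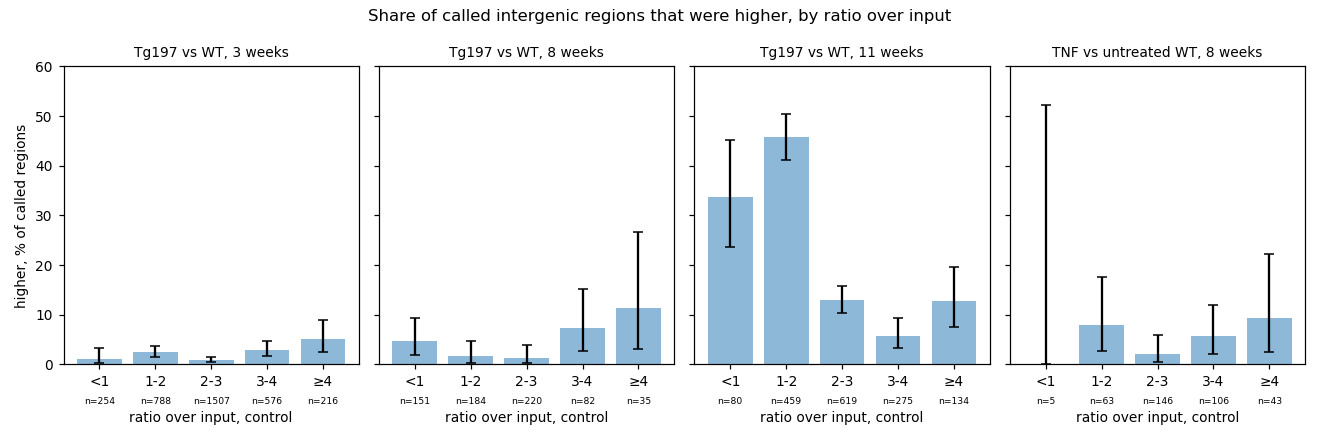
Share of called intergenic regions that were higher, in percent (y axis), by the authors' ratio of the control signal over input (x axis), where bars are shares, whiskers exact 95% intervals and n the number of regions in each bin. At 11 weeks the share was 33.8% and 45.8% in the bins under 2 and 5.82% to 12.9% above, while no bin of the other comparisons exceeded 11.4%.

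TNF in culture gave the lowest median change of the 4 comparisons and few gains. Fitted falls reached -2.88 on the log2 scale, but the 5 largest were at regions whose groups overlapped. Among regions without overlap the largest fall was on chromosome X, 19888401 to 19890300, between Kdm6a, a histone demethylase gene, and Rbm10, where the TNF libraries held 170, 28.7 and 92.4 normalized reads against 509.7, 412 and 174 in untreated WT cells (log2 change -2.10 ± 0.62, limma adjusted p = 0.046). Another region of the same gap, on chromosome X, 18743001 to 18744100, had the largest rise among those without overlap, with 175, 162 and 140.3 against 89.2, 121 and 84.4 (0.70 ± 0.27, limma adjusted p = 0.049). The 2 regions lay far apart in the same gap between placed genes and moved in opposite directions, each without overlap of the groups. The nearest placed TSS to the rise was that of Kdm6a, 1004 kb away. Between Ptpdc1 and Phf2, also a histone demethylase gene, on chromosome 13, 48791201 to 48792400, the values were 83.2, 25.1 and 34.1 against 233, 184 and 95.7 (-1.94 ± 0.62). Between Elp3 and Scara3, on chromosome 14, 66392001 to 66393000, they were 68.7, 20.3 and 33.6 against 173, 160.0 and 78.7, not past limma's threshold (-1.83 ± 0.73, adjusted p = 0.052). After Tmem106c, on chromosome 15, 97861001 to 97862100, they were 88.6, 26.5 and 36.3 against 214.5, 191 and 90.1 (-1.80 ± 0.62, limma adjusted p = 0.046). At these 4 losses TNF library b was the lowest and library a came close to WT library c.

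Over all listed regions with TNF 757 were called higher, and at 690 all TNF libraries lay above all WT libraries. Of the 18 intergenic regions higher with TNF, 14 had groups that did not overlap. On chromosome 10, 122420901 to 122421900, between Gm9079 and Lrig3, the values were 244, 412 and 334 against 185, 235 and 194 (log2 change 0.66 ± 0.20, limma adjusted p = 0.046). Between Rgmb and Lnpep, on chromosome 17, 17430601 to 17431600, they were 188, 159 and 189 against 101, 123 and 127 (0.61 ± 0.21). This gap also held a rise at 3 weeks, but at another place, and 8 other coding genes stand in it. The 3-week rise lay 4.55 kb from the TSS of Rgmb, and this one 330 kb from that of Lnpep. A place between Rabepk and its neighbour, on chromosome 2, 34657901 to 34658900, was higher in both comparisons that use the 8-week WT libraries and was chosen after its values were seen. It held 374, 256 and 320 in Tg197 against 219, 239 and 255 in WT cells (0.40 ± 0.21, limma adjusted p = 0.11), and 308, 425 and 358 with TNF against 257, 279.5 and 288 (0.39 ± 0.15, limma adjusted p = 0.048). Those comparisons share their WT libraries, so the match is no independent repeat.

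To relate the regions to genes, each was assigned the nearest TSS among 7858 genes that the same tables place, if within 100 kb, which held for 2773, 482, 1246 and 290 regions. A gene with no listed region of its own is missing from that map, so the nearest gene can be another. Median distances to that TSS were 23.8, 33.5, 31.9 and 25.3 kb. Higher regions lay farther out than lower ones at 3 weeks (medians of 56.7 and 23.5 kb), at 8 weeks (149 and 32.5 kb) and with TNF (94.0 and 23.8 kb), and at 11 weeks the medians were 33.9 and 31.3 kb. Of called regions within 100 kb of a placed TSS, 39 were higher and 2722 lower at 3 weeks, 7 and 469 at 8 weeks, 273 and 947 at 11 weeks, and 9 and 275 with TNF.

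Regions next to extracellular matrix genes, which code for collagens and elastic fibre proteins, were lower nearly throughout, as were most intergenic regions near any placed gene. At 3 weeks 46 of 46 such regions were lower and fell (2722 of 2761 near any placed gene were lower), next to 12 genes including Col3a1, Col5a1, Eln, Fbn1, Lox and Thbs1. At 8 weeks 6 of 6 were lower (469 of 476 near any placed gene), at 11 weeks 18 of 19 (947 of 1220), and with TNF 5 of 5, of which 4 fell (275 of 284). The group's medians were -0.76, -0.997, -0.70 and -1.32, beside -0.74, -1.02, -0.63 and -1.17 for all regions with a placed gene within 100 kb. Scaled to all listed regions, 36 of the 46 lay below 0 and 10 above at 3 weeks, the median was -0.09 and 0 fell. In that scaling 0 of the 6 fell at 8 weeks, 1 of the 19 at 11 weeks and 2 of the 5 with TNF. The largest change at 3 weeks was near Thbs1, on chromosome 2, 117986901 to 117987900, with 62.8, 47.0 and 58.4 normalized reads in Tg197 against 148, 108 and 126 in WT cells (-1.18 ± 0.26, limma adjusted p = 0.014). Near Fbln2 at 8 weeks, on chromosome 6, 91135301 to 91136500, the values were 32.1, 85.0 and 83.2 against 232, 162 and 88.9 (-1.29 ± 0.49, limma adjusted p = 0.073). Near Eln, the elastin gene, at 11 weeks, on chromosome 5, 135259301 to 135260300, they were 70.7, 83.0 and 41.0 against 116, 112 and 107 (-0.83 ± 0.24). Near Col5a1 with TNF, on chromosome 2, 27694701 to 27695900, they were 92.3, 33.8 and 75.9 against 211, 200.5 and 118 (-1.46 ± 0.47).

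Regions next to AP-1 and growth response genes, the early transcription factors and Smad regulators, were of both directions at 11 weeks, the table in which higher regions were most common near any placed gene (273 of 1220). All 27 were lower at 3 weeks, next to Fosl2, Cebpb, Egr1, Ier2, Smad3 and 4 other genes, all 6 at 8 weeks and all 4 with TNF, where 39 of 2761, 7 of 476 and 9 of 284 regions near any placed gene were higher. At 11 weeks 6 were higher and rose and 8 were lower and fell. The higher ones were next to Egr3, Fosl2, Ier3, Runx1 and Smad3, the lower ones next to Egr1, Ier2, Runx1, Smad7, Tead1 and Tgfb2, and those 6 stayed above 0 under both other scalings, where 6 and 5 rose. Near Egr3, an early growth response gene, on chromosome 14, 70487701 to 70488700, the values at 11 weeks were 161, 129 and 80.4 against 64.0, 54.1 and 65.2 (log2 change 0.96 ± 0.24, limma adjusted p = 0.0045). Near Fosl2 at 3 weeks, on chromosome 5, 32412801 to 32413800, they were 64.4, 46.4 and 69.3 against 123, 104 and 126 (-0.98 ± 0.26). Near Atf3 at 8 weeks, on chromosome 1, 193059801 to 193060800, they were 35.3, 70.1 and 54.7 against 183, 154 and 68.1, with overlap (-1.27 ± 0.49, limma adjusted p = 0.073). Near Smad3 with TNF, on chromosome 9, 63679201 to 63680200, they were 72.4, 34.5 and 61.6 against 175, 165.5 and 90.1 (-1.35 ± 0.51, limma adjusted p = 0.049). At 3 weeks 9 of the 27 lay above 0 when scaled to all listed regions.

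Bone, Wnt and BMP genes act in bone formation and joint remodelling. Next to them 1 region was higher and 19 lower at 3 weeks, 3 of 3 were lower at 8 weeks, 5 were higher and 16 lower at 11 weeks, and 2 of 2 were lower with TNF. Near any placed gene 39 of 2761, 7 of 476, 273 of 1220 and 9 of 284 regions were higher, so the group does not stand out. The 5 higher regions at 11 weeks lay next to Wnt10a, Wnt11, Wnt4, Wnt5b and Wnt7b, and 4 of those genes also had a lower region. Near Wnt4 at 3 weeks, on chromosome 4, 136780301 to 136781300, the values were 70.7, 40.6 and 63.8 against 116, 109.5 and 133 (log2 change -1.06 ± 0.29). Near Tcf7l2, a transcription factor of the Wnt pathway, at 11 weeks, on chromosome 19, 55776801 to 55777800, they were 86.7, 53.3 and 42.7 against 109, 127 and 102 (-0.94 ± 0.24, limma adjusted p = 0.0046). With TNF and scaling to all listed regions 1 of the 2 regions lay above 0.

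Next to NF-kB targets and regulators, the genes that answer TNF signalling directly, 7 of 7 regions were lower at 3 weeks and 3 of 3 at 8 weeks. Near any placed gene 2722 of 2761 and 469 of 476 were lower, so these counts do not set the group apart. At 11 weeks 1 of 3 was lower (947 of 1220 near any placed gene). None was listed with TNF, where only 284 regions near any placed gene were called. The higher regions at 11 weeks were next to Nfkb2 and Tnfrsf1b, a TNF receptor gene, and 0 of these 2 rose under promoter scaling. Near Birc2, a ubiquitin ligase gene of the TNF receptor complex, at 3 weeks, on chromosome 9, 7800601 to 7801600, the values were 77.1, 36.0 and 78.8 against 163, 155 and 118 (log2 change -1.25 ± 0.30, limma adjusted p = 0.014). Near Tnfaip2 at 8 weeks, on chromosome 12, 112698301 to 112699400, they were 42.8, 55.3 and 70.5 against 165, 149 and 87.5 (-1.22 ± 0.39, limma adjusted p = 0.073). Near Nfkb2 at 11 weeks, on chromosome 19, 46361601 to 46363000, they were 99.6, 152 and 102 against 175.5, 156 and 174 (-0.54 ± 0.16).

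Chemokine and cytokine genes had 13, 5, 1 and 3 neighbouring regions and all were lower, as were 2722 of 2761, 469 of 476, 947 of 1220 and 275 of 284 regions near any placed gene. Near Cxcl1, a neutrophil chemokine gene, at 3 weeks, on chromosome 5, 91326801 to 91327800, the values were 82.7, 46.4 and 61.1 against 105, 108 and 129 (log2 change -0.88 ± 0.28). Near Cxcl14 with TNF, on chromosome 13, 56452101 to 56453400, they were 95.9, 39.2 and 79.8 against 261, 189 and 112 (-1.39 ± 0.46, limma adjusted p = 0.046). Scaled to all listed regions 6 of the 13 lay above 0 at 3 weeks. Interferon response genes had 8, 1, 1 and 0 regions, all lower. Regions near Irf8, a transcription factor of the interferon response, were lower at all 3 ages, at places that did not overlap between ages. The largest change at 3 weeks was on chromosome 8, 123225801 to 123226900, with 69.2, 51.6 and 73.3 against 123, 124 and 139 (-1.001 ± 0.23).

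The smaller groups followed the same split as regions near any placed gene. Of those, 2722 of 2761, 469 of 476, 947 of 1220 and 275 of 284 were lower. Proteases and inhibitors had 6 lower regions at 3 weeks and 1 higher and 2 lower at 11 weeks, and had none at 8 weeks or with TNF. Homeobox and limb patterning genes had 5 lower, 1 lower, 1 higher and 6 lower, and 2 lower regions in the order of the tables, with Pitx1, a hindlimb factor, next to regions of both directions at 11 weeks. Cytoskeleton and adhesion genes had 24 lower regions at 3 weeks, 1 at 8 weeks, 1 higher and 6 lower at 11 weeks, and 3 lower with TNF. Near Actn1, the alpha-actinin gene, the largest losses were on chromosome 12, 81410601 to 81412000, at 3 weeks (-1.21 ± 0.24) and 81426001 to 81427100 at 11 weeks (-0.86 ± 0.16). Near Itga11, a collagen receptor gene, a region on chromosome 9 was lower at 8 weeks (62463801 to 62465000, -1.14 ± 0.41, limma adjusted p = 0.073) and with TNF (62463501 to 62464800, -1.52 ± 0.46, limma adjusted p = 0.046), which share their WT libraries.

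Few regions lay next to marker genes. For comparison, 2722 of 2761, 469 of 476, 947 of 1220 and 275 of 284 regions near any placed gene were lower. Synovial fibroblast markers had 4 lower regions at 3 weeks, 4 at 11 weeks and 1 with TNF, next to Col6a1, Pdgfrb, Thy1 and Htra1. Near Htra1, a serine protease gene, at 11 weeks, on chromosome 7, 138071201 to 138072200, the values were 21.4, 66.6 and 72.8 against 113, 95.9 and 97.7 (log2 change -1.10 ± 0.37). Leukocyte markers had 3, 1, 1 and 0 regions, all lower, with Itgam and Cd79a among their genes. Endothelial markers had 0 in all tables. The only muscle marker was Ckm, the muscle creatine kinase gene, with 1 region that rose at 3 weeks, on chromosome 7, 19989301 to 19990300, at 114, 137 and 197 against 93.5, 99.5 and 105 (0.55 ± 0.21, limma adjusted p = 0.026). Of cartilage, bone and fat markers Comp had 1 lower region at 3 weeks and Sox6 1 at 11 weeks, and of nerve sheath and epithelial markers Cdh1 had 1 lower region at 3 weeks. In bulk libraries fewer cells of a type and less signal per cell cannot be told apart.

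Where the gene nearest to a lower region also had a called promoter region within 3 kb of its TSS, that promoter was mostly lower as well. At 3 weeks 539 of the 1469 genes next to a lower region had a called promoter row, which was higher at 109, lower at 402 and both at 28. The promoter was higher alone at 20.2% of these genes and at 39.8% of all 2741 genes with a called promoter row. At 8 weeks the shares were 23.3% of 73 and 46.6% of 1087 genes, at 11 weeks 31.5% of 143 and 48.6% of 1575, and with TNF 10.7% of 56 and 40.9% of 1664. Of the 37 genes next to a higher region at 11 weeks that had a called promoter row, the promoter was higher at 23 and lower at 14. Next to higher regions at 3 weeks it was higher at 3, lower at 6 and both at 1 of 10 such genes, at 8 weeks it was lower at the 1 gene, and with TNF it was higher at 2 and lower at 1. These shares are given without a test, since neighbouring rows of the same libraries are not independent.

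A minority of pairs ran in opposite directions under the authors' scaling. Scaled to all listed regions, 0 of the 7 regions next to NF-kB genes fell at 3 weeks, those of Birc2 and Nfkb2 among them. Nor did any of the 4 next to synovial fibroblast markers at 11 weeks, Col6a1 among them. Scaled to promoters, the median over all listed regions at 3 weeks went from -0.70 to -1.04, so the promoter rises at 3 weeks were smaller there. At Birc2 the region 34.2 kb away held 63.9 ± 24.3 (SD, n = 3) normalized reads in Tg197 and 145 ± 23.8 (n = 3) in WT cells at 3 weeks, while the promoter held 288 ± 36.9 and 206 ± 9.32 (log2 change 0.47 ± 0.17, limma adjusted p = 0.021). At Nfkb2 the region fell by 0.68 on the log2 scale (SE 0.22), and the promoter held 799 ± 73.2 against 567 ± 39.9 and rose by 0.49 (SE 0.18, limma adjusted p = 0.023). At Spp1, the osteopontin gene, the region fell by 0.96 (SE 0.36), and the promoter held 253 ± 54.7 against 171 ± 18.8 and rose by 0.55 (SE 0.19, limma adjusted p = 0.018). At Twist2, a mesenchymal transcription factor gene, the region fell by 1.11 (SE 0.24) and the promoter rose by 0.39 (SE 0.17, limma adjusted p = 0.040). At Col6a1 at 11 weeks the region fell by 0.78 (SE 0.19) and the promoter rose by 0.58 (SE 0.18, limma adjusted p = 0.0089). At Egr3 and Smad3 at 11 weeks both rose: the regions by 0.96 and 0.74 and the promoters by 0.47 and 0.51.

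Regions within 20 kb of each other were joined into clusters. Most stood alone at 8 weeks (421 regions), 11 weeks (1187) and with TNF (291), whereas at 3 weeks 1376 stood alone and 514 belonged to 75 clusters of 5 or more. Regions of both directions stood together in 51 of 178 clusters with 2 or more members at 11 weeks, where 22.3% of called regions were higher. They did so in 14 of 671 at 3 weeks, 2 of 79 at 8 weeks and 0 of 28 with TNF, where few regions were higher at all. The largest cluster at 3 weeks held 19 lower regions on chromosome 4, 145116101 to 145239200, before Gm13242, with 15 of them free of overlap between groups and medians per library of 132, 86.4 and 129 normalized reads in Tg197 against 199.5, 226 and 173. Clusters of 12 regions without any overlap lay on chromosome 15, 98775401 to 98896700, between the tubulin gene Tuba1b and Troap, and on chromosome 7, 134645401 to 134707700, between Fbrs and Phkg2.

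Some clusters lay in families of near-identical genes, where a read cannot be placed with certainty. At 8 weeks 17 lower regions on chromosome 5, 15112601 to 15180800, lay among Speer genes, a repeated family, with medians per library of 218, 325 and 163 against 620, 814 and 148, and all 17 overlapped between groups. A further 13 lay on chromosome 5, 14977201 to 15055500, with 698, 913 and 484 against 2349, 2666 and 428. Another 8 lay among Rn4.5s repeats on chromosome 6, 47690101 to 47721700, with 269, 475 and 394 against 1038, 863 and 402. In these 3 clusters WT library c lay within or below the range of the Tg197 libraries. At 11 weeks a cluster of 6 regions, 2 higher and 4 lower, lay on chromosome 7, 134803301 to 134845000, between Zfp629 and Ctf2, and no region of it overlapped between groups. With TNF 5 lower regions each lay between Malat1, a long noncoding RNA gene, and Frmd8 on chromosome 19, 5812701 to 5849100, between Snai1, a transcription factor of mesenchymal cells, and Ube2v1 on chromosome 2, 167392201 to 167426300, and between Lmna, the lamin A gene, and Mex3a on chromosome 3, 88314201 to 88335000.

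The highest regions were few. At 3 weeks a region at the start of chromosome 9, 2999101 to 3000100, held 1770, 1401 and 4066 normalized reads in Tg197 against 3609, 3884 and 3596 in WT cells, with overlap (log2 change -0.77 ± 0.38, limma adjusted p = 0.066). At 11 weeks a region between Ube2d1 and Zwint, on chromosome 10, 71759001 to 71760900, held 3559, 3118 and 3272 against 4081, 5580 and 3599 and fell (-0.39 ± 0.12, limma adjusted p = 0.0089). At 8 weeks a region between Cdc20 and Ebna1bp2, on chromosome 4, 118220301 to 118222200, held 1277, 2822 and 1807 against 9412, 3599 and 2280, so that 1 WT library was over 2 times any other (-1.19 ± 0.84, limma adjusted p = 0.20). With TNF a region between Ly6e and Top1mt, on chromosome 15, 74915201 to 74916500, held 4533, 1006 and 4044 against 5356, 5920 and 5998 (-1.12 ± 1.14, limma adjusted p = 0.35). Regions over 500 normalized reads per kb numbered 20, 17, 4 and 9, and 20, 10, 4 and 5 without the mitochondrial rows and the chromosome 1 stretch. The median control ratio over input of the latter was 0.685, 2.30, 2.66 and 2.04, and the groups were free of overlap at 1, 3, 3 and 5 of them. Over all listed regions the groups overlapped at 1000 of 13603, 1076 of 2923, 270 of 6593 and 795 of 3082.

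The chromosome 1 stretch and the mitochondrial chromosome were listed in both tables that use the 8-week WT cells. In the 8-week table the stretch had 3 regions, all called higher. At 24621001 to 24622100 the Tg197 libraries held 6087, 5255 and 1514 normalized reads and the WT libraries 1574, 2091 and 2392, so that Tg197 library c lay below all WT libraries and the log2 change was 0.87 ± 0.80 (limma adjusted p = 0.31). At 24617801 to 24618900 they held 2324, 1884 and 521 against 634, 815 and 899, and at 24622501 to 24623800 2402, 1917 and 523 against 754, 927 and 956. The same order of libraries was seen at 4 mitochondrial regions: relative to the WT mean the stretch stood at 2.97, 2.41 and 0.666 in Tg197 libraries a, b and c, and the mitochondrial regions at 2.84, 2.49 and 0.681. With TNF a single region of the stretch, at 24622501 to 24623700, held 557, 256 and 696 against 877, 1078 and 1081 (-1.12 ± 0.33, limma adjusted p = 0.046). It stood at 0.551, 0.253 and 0.687 of the WT mean, and the 3 mitochondrial regions there at 0.537, 0.217 and 0.707.

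The control ratio over input was 0.09 at every one of these regions, and 0.26 to 0.28 in Tg197 and 0.08 with TNF, under the lowest ratios of other members (0.40 in control and 0.35 in Tg197 cells at 8 weeks, 0.85 and 0.55 in the TNF comparison). Mitochondria carry no histones, and the nuclear genome of the mouse holds copies of mitochondrial DNA. Whether the stretch and the mitochondrial regions share reads was not tested. Without them the authors called 665 intergenic regions at 8 weeks, 16 higher and 649 lower, and 359 with TNF, 18 higher and 341 lower.

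**Figure D4:**
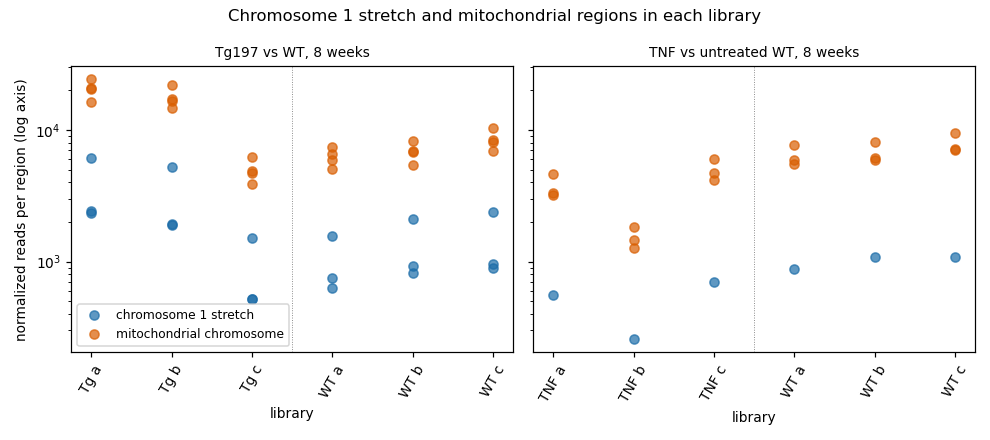
Normalized reads per region on a log axis (y axis) in each library (x axis) for the regions of the chromosome 1 stretch (blue) and the mitochondrial chromosome (orange), in both tables that share the 8-week WT libraries. Both kinds of region follow the same order of libraries, with Tg197 library c and TNF library b lowest.

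Few called intergenic regions overlapped between ages. Called intergenic regions of the 3-week and 8-week tables overlapped by at least 1 bp in 87 pairs, which took in 2.39% of the former and 12.6% of the latter. At 3 and 11 weeks there were 144 pairs (4.31% and 8.998%), and at 8 and 11 weeks 39 (5.80% and 2.43%). The lists held 3341, 672 and 1567 called regions at 3, 8 and 11 weeks and only selected differences, which limits these shares. The same shares were not computed over all listed regions, so low sharing is not shown to be particular to intergenic regions. Of the 2179 gaps between placed genes with a called region, 42 had one in all 4 tables, 208 in 3, 616 in 2 and 1313 in 1. A gap lies between genes that the tables place and can hold others, such as 5 coding genes between Csf1 and Gstm2 and 42 between Hist1h2bk and C230035I16Rik by RefSeq gene order. The 42 gaps held 249, 78, 117 and 84 called regions in the order of the tables. In 24 of the gaps no region was higher in any table, and in 18 at least 1 was.

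Between Csf1, the macrophage colony-stimulating factor gene, and Gstm2 there were 12, 5, 1 and 2 called regions, all lower. Their summed signal at 3 weeks was 1328, 1066 and 1414 in Tg197 against 1844, 1930.2 and 2144 in WT cells. At 8 weeks it was 317, 434 and 452 against 917, 812 and 502, at 11 weeks 114, 104.5 and 98.8 against 156, 146 and 149, and with TNF 197, 127 and 164 against 379, 331 and 210.1. The groups did not overlap in any comparison, although scaled to all listed regions 7 of the 12 at 3 weeks lay above 0. Only regions called on these same libraries, all of them lower, were summed, which partly sets that separation in advance. This gap and those named below are examples from the 42. Between Rxra, a nuclear receptor gene, and Col5a1 there were 7, 3, 2 and 4 regions, all lower, with medians of -0.59, -0.89, -0.71 and -1.23. Between Clic5 and Runx2, the master regulator of osteoblasts, there were 7, 1, 1 and 1, all lower, with medians of -0.88, -1.20, -0.70 and -1.58. Between Itgb5, an integrin gene, and Ropn1 there were 4 regions at 3 weeks, 1 higher and 3 lower, 1 lower at 8 weeks, 3 higher at 11 weeks, and 1 higher and 1 lower with TNF. Between the histone gene Hist1h2bk and C230035I16Rik 2 were higher and 2 lower at 3 weeks, 3 lower at 8 weeks, 2 higher at 11 weeks and 2 lower with TNF.

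At 4 loci regions that overlapped were lower at 3, 8 and 11 weeks, and none was free of overlap between groups at all 3 ages. Between Thbs2, a thrombospondin gene, and Phf10, on chromosome 17, 14895501 to 14897400, Tg197 libraries held 127, 74.8 and 263 against 278, 295 and 259 at 3 weeks (log2 change -1.02 ± 0.33, limma adjusted p = 0.016). They held 83.4, 187 and 152 against 428, 445 and 103 at 8 weeks (-1.01 ± 0.56, limma adjusted p = 0.12), and 134, 155 and 132 against 309, 175 and 169.6 at 11 weeks (-0.58 ± 0.19, limma adjusted p = 0.012). The groups overlapped at 3 weeks through Tg197 library c and at 8 weeks through WT library c. Of the others, 1 lay between Chchd6 and Zxdc on chromosome 6, 89680701 to 89682800 (-0.98, -0.69 and -0.57), and 1 between the histone gene Hist2h3b and Rnu1b2 on chromosome 3, 96132601 to 96134100 (-0.65, -0.46 and -0.58). Scaled to all listed regions, the Hist2h3b locus lay above 0 at 3 and 8 weeks and the Chchd6 locus at 8 weeks.

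Of the 144 pairs at 3 and 11 weeks 121 were lower at both ages and 4 were higher at both. Another 17 were lower at 3 and higher at 11 weeks, and 2 ran the other way. Opposite pairs were thus 13.2%, while among all called intergenic regions 1.89% were higher at 3 weeks and 22.3% at 11 weeks. The count of opposite pairs therefore does not stand out. The 19 pairs of opposite direction had median log2 changes of -0.73 at 3 weeks and 0.60 at 11 weeks. In 17 of them the groups were free of overlap at both ages. Over all listed regions the groups overlapped at only 1000 of 13603 at 3 weeks and 270 of 6593 at 11 weeks. Scaled to all listed regions 13 of the 19 remained opposite and 6 lay above 0 at both ages, and scaled to promoters all 19 were opposite. When at least 50% of the shorter region had to overlap, 91 pairs remained, of which 9 were lower at 3 and higher at 11 weeks and 2 ran the other way, 10 of these free of overlap between groups at both ages. The difference between the ages was not tested.

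Beside Nuak1, a stress-activated kinase gene, on chromosome 10, 83906701 to 83908000, the Tg197 libraries held 83.5, 80.0 and 74.7 and the WT libraries 146, 146 and 158 at 3 weeks (-0.91 ± 0.18, limma adjusted p = 0.014). At 11 weeks, at 83905901 to 83907000, they held 117, 123 and 116 against 74.0, 64.5 and 77.5 (0.72 ± 0.16, limma adjusted p = 0.0043). The Tg197 and WT libraries thus changed places between the ages without any overlap. Near Ddit4, a stress-induced inhibitor of mTOR signalling, on chromosome 10, 59388901 to 59390200, the values were 85.8, 53.3 and 92.3 against 154, 135 and 161 at 3 weeks (-0.99 ± 0.23). At 11 weeks, at 59388901 to 59390100, they were 209.9, 129 and 104 against 85.0, 82.9 and 100.0 (0.66 ± 0.22). Near Irf2bp2, a repressor of interferon-regulated genes, on chromosome 8, 129148701 to 129150000, the 3-week values were 79.5, 57.4 and 95.1 against 139.7, 142 and 150.3 (-0.92 ± 0.21). The 11-week values, at 129148301 to 129149400, were 111, 117 and 100.5 against 72.9, 63.7 and 78.6 (0.61 ± 0.17). In the gap after Vegfa, the vascular growth factor gene, 159 kb away on chromosome 17, 46009701 to 46011300, the 3-week values were 98.6, 117 and 152 against 198, 177 and 216 (-0.70 ± 0.20). The 11-week values, at 46011001 to 46012000, were 200.2, 111 and 92.9 against 85.0, 72.4 and 85.4 (0.65 ± 0.24). Near Ccdc32, on chromosome 2, 118799201 to 118800300, the 3-week values were 54.8, 59.7 and 74.7 against 125, 118 and 137 (-1.01 ± 0.23). The 11-week values, at 118798501 to 118799700, were 149.9, 180.3 and 155 against 110.4, 101 and 104 (0.61 ± 0.13). The reverse order was seen near 2010111I01Rik, on chromosome 13, 63065701 to 63066700, with 3-week values of 237, 256 and 249.9 against 168, 188 and 195 (0.43 ± 0.16). The 11-week values, at 63065201 to 63066300, were 83.5, 102 and 73.7 against 125, 151 and 130.3 (-0.65 ± 0.17). The paired regions near Nuak1, Vegfa and Ccdc32 overlapped by less than 50% of the shorter region.

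**Figure D5:**
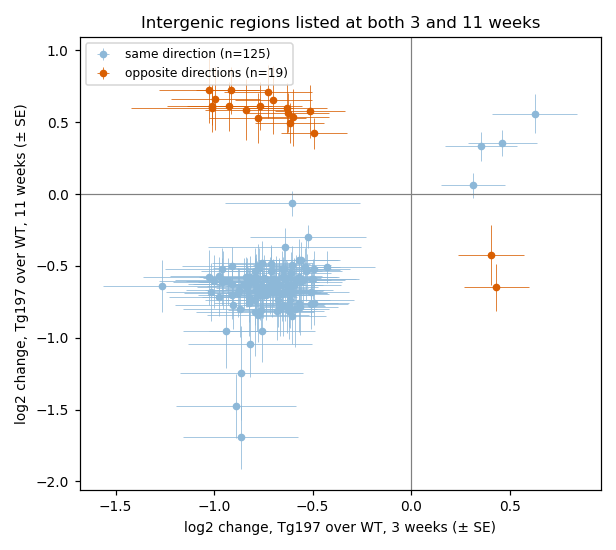
Log2 change of Tg197 over WT at 11 weeks (y axis) against 3 weeks (x axis), with SE as bars, for the 144 pairs of overlapping intergenic regions called at both ages; each point is 1 pair, and orange marks the 19 of opposite direction. Most points lie in the lower left, where both changes are below 0, and 17 lie in the upper left.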

How the data were processed

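H3K4me3 ChIP-seq was measured in 21 synovial fibroblast libraries, 7 groups of 3, with 1 input library, as 100 bp paired-end reads per the labels' protocols. Per the submitters' processing notes the build was mm9, and the tools named, with no role for any, were Cuffdiff, Cufflinks, TopHat, TopHat2 and BWA. The region caller and scaling are not given in the sources used here. Deposited tables list regions that differed between 2 groups, with a normalized signal per library, a ratio over input, a log2 fold change and an adjusted p-value, all computed by the authors. The authors' p-values call a region higher or lower at 0.05. Every normalized value was a whole multiple of what 1 read is worth, within 0.02 normalized reads (100% of values), which gave the relative depths.

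The members and gene lists were chosen with earlier results of these data known. From the deposited signal, log2(value + 0.5) was tested with limma 3.58.1 (R 4.3.3, trend) over each whole table with Benjamini-Hochberg adjustment, with no filter on low values. The test was tested on simulated data. In the simulation most regions were unchanged and all libraries had the same spread, unlike in these tables of selected regions. It therefore does not vouch for the calls here. Library sums were compared by exact permutation tests, two-sided. Python 3.11.15, pandas 2.3.3, scipy 1.17.1 and matplotlib 3.10.9 were used. Controls were taken to be WT cells, since recovered reads in the control columns of the 8-week and TNF tables were equal in all 162 values of 54 regions with identical coordinates. The labels do not say that libraries come from separate animals or cultures, so p-values measure only the spread between these libraries.

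Intergenic rows carry no gene, so the nearest TSS was taken from the 7858 genes on other rows, of which 7823 matched a symbol of GRCm38.p6. Its coordinates were not used. Named regions were, per table, the 4 largest rises and 4 largest falls among called regions with a mean of 20 or more and no overlap between groups, the 3 with most reads per kb, the chromosome 1 stretch, loci called at all 3 ages, the largest change beside a gene of each of 15 lists, and all higher regions of a table where there were 5 or fewer. The overlapping loci of opposite direction were chosen after their values were seen. The gaps between placed genes that are named were not set by this rule. Alternatives were 2 other scalings, pseudocounts of 1 and 5, a filter at 20, voom, a stricter p of 0.001, chromosome 11 kept and each library left out. Leaving out the mitochondrial rows and the ratio to gene bodies were chosen after seeing the data. Some regions that this rule names are not reported here. Sequences of the regions are not shown.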

Additional observations from a re-analysis of the deposited data

Results flagged for a closer look

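Overlapping intergenic regions of the Tg197 and WT comparison went in opposite directions at 2 ages, with every Tg197 library on 1 side of every WT library at each age. This held for 1 pair at 3 and 8 weeks, 17 pairs at 3 and 11 weeks and 3 pairs at 8 and 11 weeks. With or without overlap of the groups, 3.45%, 13.2% and 17.9% of the overlapping pairs were opposite. Among all called intergenic regions 1.89%, 3.42% and 22.3% were higher at 3, 8 and 11 weeks, so these counts do not stand out. With an overlap of at least 50% of the shorter region 0, 10 and 2 such pairs remained, and the pair near Daxx was not among them. The difference between the ages was not tested, because the tables were normalized separately and list only regions selected for a difference. The pair at 3 and 8 weeks lay near Daxx, a histone chaperone gene, on chromosome 17. At 34026601 to 34028000 the Tg197 libraries held 277, 271 and 291 normalized reads against 221, 213 and 219 at 3 weeks (log2 change 0.36 ± 0.16, limma adjusted p = 0.045). At 34025901 to 34027000 they held 87.1, 89.0 and 99.8 against 194, 167 and 115 at 8 weeks (-0.75 ± 0.27, limma adjusted p = 0.073). The 3 pairs at 8 and 11 weeks lay near Ier3, an early response gene, with changes of -0.85 and 0.56, near Trim56, a ubiquitin ligase gene, with -1.05 and 0.51, and near Slc7a2, an arginine transporter gene, with -1.40 and 0.58.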

How the results depend on the processing

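No paired analysis was possible because the 3 values of a group carry no replicate number, so no replicate block could be fitted. Scaled to all listed regions, limma called 55, 26, 579 and 68 intergenic regions at 3, 8 and 11 weeks and with TNF, against 3274, 0, 1589 and 226 under the authors' scaling, and scaled to promoters it called 442 at 8 weeks. Pseudocounts of 1 and 5, the filter at 20 and voom kept each count within 1.5 times. Leaving out 1 library gave 0 to 3332 calls at 3 weeks, 0 to 655 at 8 weeks, 1538 to 1574 at 11 weeks and 0 to 325 with TNF. At an authors' adjusted p of 0.001 the calls were 358 at 8 weeks, 921 at 11 weeks and 145 with TNF. An overlap of at least 50% of the shorter region left 91 pairs at 3 and 11 weeks and 23 at 8 and 11 weeks.

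The log2 difference of the intergenic signal relative to promoters ranged, with 1 library left out, from -1.19 to -0.66 at 3 weeks, -0.75 to -0.26 at 8 weeks, -0.55 to -0.43 at 11 weeks and -1.36 to -0.78 with TNF. Relative to gene bodies it was 0.0199 at 3 weeks. Scaled to all listed regions, 8 of 108 named values changed sign and the cause was not tested. At 3 weeks these were 0.20 and 0.26 on chromosome 8 (19927301 and 19922101), 0.0148 at the Hist2h3b locus and 0.11 near Comp. At 8 weeks they were 0.0267 at the Chchd6 and 0.25 at the Hist2h3b locus, and at 11 weeks 0.0322 on chromosome 6 (47688001) and 0.14 on chromosome 1 (172999701). No named value changed sign when libraries were scaled to promoters or 1 was left out. Limma calls of the named values were less stable. Scaled to all listed regions, 42 of the 108 no longer passed limma's threshold, 7 newly passed it and 51 stayed as they were. Scaled to promoters, 8 no longer passed and 16 newly passed. With 1 library left out, 113 of 648 values no longer passed and 24 newly passed. With 3 libraries a group the exact permutation test cannot go below 0.1, and regions without a listed difference were not analysed here.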
